A study of Mus musculus with 2 samples.

Results

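Skeletal muscle stem cells, called satellite cells, lie between the muscle fibre and its basement membrane and re-enter the cell cycle after injury. The 41 genes described here encode collagens, laminins and their linkers, elastic fibre proteins, small proteoglycans, matricellular proteins, and the proteases and inhibitors that remodel matrix. They were taken by symbol from a list whose rule applies no measured value, and are 41 of the 32286 genes in the count matrices. The list was chosen with earlier results of these data known, so counts of members called beside the share of all genes are descriptive only. All 41 had at least 1 unique molecular identifier (UMI, a tag that marks 1 captured RNA molecule) in both libraries. Together they held 103013 UMIs in the library of GFP+ cells and 370599 UMIs in the library of GFP- cells.

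The study sorted satellite cells of Pax3GFP/+ mice, as the sample titles give the animals, 5 days after injury of the biceps and recto femoris muscles. The GFP+ sort is labelled PAX3+ and the GFP- sort PAX3-. Each gave 1 droplet library (10x Chromium Single Cell 3′ kit v3.1) with 20000 cells loaded. In the Pax3GFP allele the reporter stands in the Pax3 gene, so the cells of both sorts carry 1 engineered Pax3 allele, while the genotype field of both samples reads wild-type. Whether a library came from 1 animal or from pooled animals, and the age of the animals and the agent of injury, have no statement in the sources used here. With 1 library in each group, GFP+ and GFP- cells were compared without a test, and intervals on their levels and ratios are 95% intervals that cover counting error only.

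Collagens of the fibrillar kind form the load-bearing fibres of the interstitial matrix. Collagen IV, laminins, nidogens and perlecan make the basement membrane, the thin sheet that wraps each muscle fibre and covers the satellite cell, and collagen VI filaments link it to the interstitium. Matrix metalloproteinases and ADAMTS enzymes cut these proteins, and the TIMP proteins inhibit them. Satellite cells are known to make part of the matrix of their own niche.

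The 2 main collagen IV genes differed between most of the classes described below, and they share a promoter region, so both windows are shown. Col4a1 (ENSMUSG00000031502, chr8:11198423-11312826, minus strand) and Col4a2 (ENSMUSG00000031503, chr8:11312805-11449287, plus strand) lie head to head on mouse genome build mm10 (GRCm38), and their first exons overlap by 22 bases. The windows run from 250 bases before to 50 bases after each RefSeq start (GRCm38.p6), 5′ to 3′ on the gene's own strand, at chr8:11312777-11313076 for Col4a1 and chr8:11312555-11312854 for Col4a2. Capitals mark CCAAT and GGGCGG, or their reverse complements ATTGG and CCGCCC.
Col4a1: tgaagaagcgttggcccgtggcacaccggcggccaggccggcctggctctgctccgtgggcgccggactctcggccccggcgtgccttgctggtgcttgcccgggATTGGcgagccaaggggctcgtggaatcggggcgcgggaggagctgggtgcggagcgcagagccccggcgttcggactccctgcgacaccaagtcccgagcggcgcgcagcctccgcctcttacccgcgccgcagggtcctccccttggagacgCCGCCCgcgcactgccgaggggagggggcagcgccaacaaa
Col4a2: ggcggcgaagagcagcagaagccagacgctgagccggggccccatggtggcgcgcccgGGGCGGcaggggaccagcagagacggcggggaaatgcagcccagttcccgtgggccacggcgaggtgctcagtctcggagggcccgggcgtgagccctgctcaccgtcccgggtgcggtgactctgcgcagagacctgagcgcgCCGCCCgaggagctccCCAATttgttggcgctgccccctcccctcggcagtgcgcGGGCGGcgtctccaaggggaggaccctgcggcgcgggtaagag
The last 78 bases of the windows are the same stretch read on opposite strands, and it holds 1 of the GGGCGG matches, printed as CCGCCC in the Col4a1 window. Of 32851 mouse promoter windows of this length, 37.4% held CCAAT and 35.7% held GGGCGG on either strand. Among the 33 windows of the 29 members with an entry, 13 held CCAAT and 22 held GGGCGG. The TATA box letters TATAAA were in 3 of the 33 windows and in 13.6% of all windows, and the AP-1 letters TGAGTCA were in 1 of the 33 and in 5.20% of all windows. A match is a description of letters and not a binding site. Since Col4a1 and Col4a2 overlap and the strand setting of the counting was not stated, reads from the shared stretch could not be assigned with certainty.

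A barcode was kept as a cell if it had 1000 or more UMIs from 500 or more genes, with no more than 10% of them mitochondrial. This left 604 of 647 GFP+ and 2683 of 3076 GFP- barcodes above 1000 UMIs, with 11981352 and 44264206 UMIs in GFP+ and GFP- cells and a median of 18534.5 UMIs per GFP+ cell and 14663 per GFP- cell. The libraries shared 2 cell barcodes. After 76 GFP+ and 57 GFP- macrophage-like cells, 105 Rgs5-positive cells and small glial-like, endothelial-like and fibroblast-like sets were set apart, 523 GFP+ and 2492 GFP- myogenic cells remained. In these, Pax3 stood at 22.1 CPM (UMIs of a gene over all UMIs of the same cells, scaled to 1e+06) in GFP+ and 5.13 CPM in GFP- cells, a ratio of 4.32 (95% interval 3.57 to 5.21), which goes with the labels.

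Myogenic cells were split by 4 genes. Myog-positive cells (at least 5 UMIs of Myog, the myogenin gene of differentiating myoblasts) numbered 76 GFP+ and 451 GFP-. Mki67-positive cells (at least 3 UMIs of this proliferation gene, and not Myog-positive) numbered 33 and 250 in GFP+ and GFP-. Chodl-high cells are those in the top 10% by Chodl per 10000 UMIs that were neither Myog-positive nor Mki67-positive. They numbered 118 GFP+ and 181 GFP-, which is 22.6% and 7.26% of the GFP+ and GFP- myogenic cells. Spp1-high cells are those in the top 25% by Spp1 (osteopontin) that no class named before took. They were 66 of the 74 GFP+ and 533 of the 680 GFP- cells past the Spp1 limit. This is 12.6% and 21.4% of the GFP+ and GFP- myogenic cells, and not the share of all cells with high Spp1. The other 230 GFP+ and 1077 GFP- cells are called other myogenic cells. The Myog and Mki67 limits are UMI counts, which deeper cells reach more readily. Median depth was 39847 UMIs in GFP+ and 24971.5 in GFP- Mki67-positive cells, and 26234.5 and 17696 in GFP+ and GFP- Myog-positive cells. It was 18840.5 in GFP+ and 13117 in GFP- other myogenic cells. Chodl-high and Spp1-high cells are ranges of a continuous measure and not types. On either side of the Chodl limit, no more than 25% off it, lay 56 GFP+ and 135 GFP- cells, and 21 GFP+ and 174 GFP- cells lay as near the Spp1 limit. Pax7, a marker of satellite cells, stood at 529 CPM in GFP+ and 336 CPM in GFP- Chodl-high cells. Rgs5 marks mural cells, the pericytes and smooth muscle cells of vessels. Rgs5-positive cells (at least 10 UMIs) were found in the GFP- library alone, 105 against 0 of 604 GFP+ cells, and 0 allows a share of up to 0.497%. They carried 19963 CPM of the 9 mural markers together, none of which was at 0, against 578 CPM of the 7 myogenic markers, and had 0 Pax3 UMIs. Rgs5, the gene that chose these cells, made up 11172 CPM of the mural sum, and Acta2 5061 CPM. The remaining mural markers lay between 283 CPM (Cspg4) and 787 CPM (Myh11).

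Levels of the whole list differed between these classes by up to several fold. The 41 genes took 0.798% of all UMIs in GFP+ and 0.914% in GFP- Chodl-high cells, and 1.04% in GFP+ and 1.06% in GFP- Spp1-high cells. Mki67-positive cells gave 0.919% in GFP+ and 0.656% in GFP- cells. The GFP+ value includes 1 cell with fibroblast genes, described below, which held 669 of the 896 Col1a1 and 497 of the 1069 Col3a1 UMIs of that class. A share without this cell was not calculated. In Myog-positive cells the share was 0.297% in GFP+ and 0.375% in GFP- cells. Rgs5-positive cells had 2.22%, and the other myogenic cells had 0.959% in GFP+ and 0.944% in GFP- cells. Droplets with 1 to 100 UMIs, which hold free RNA, had 0.920% in the GFP+ and 0.910% in the GFP- library, so free RNA carried these genes at about the level of the cells. Macrophage-like cells, which should lack most of them, had 0.142% in GFP+ and 0.439% in GFP- cells.

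**Figure D1:**
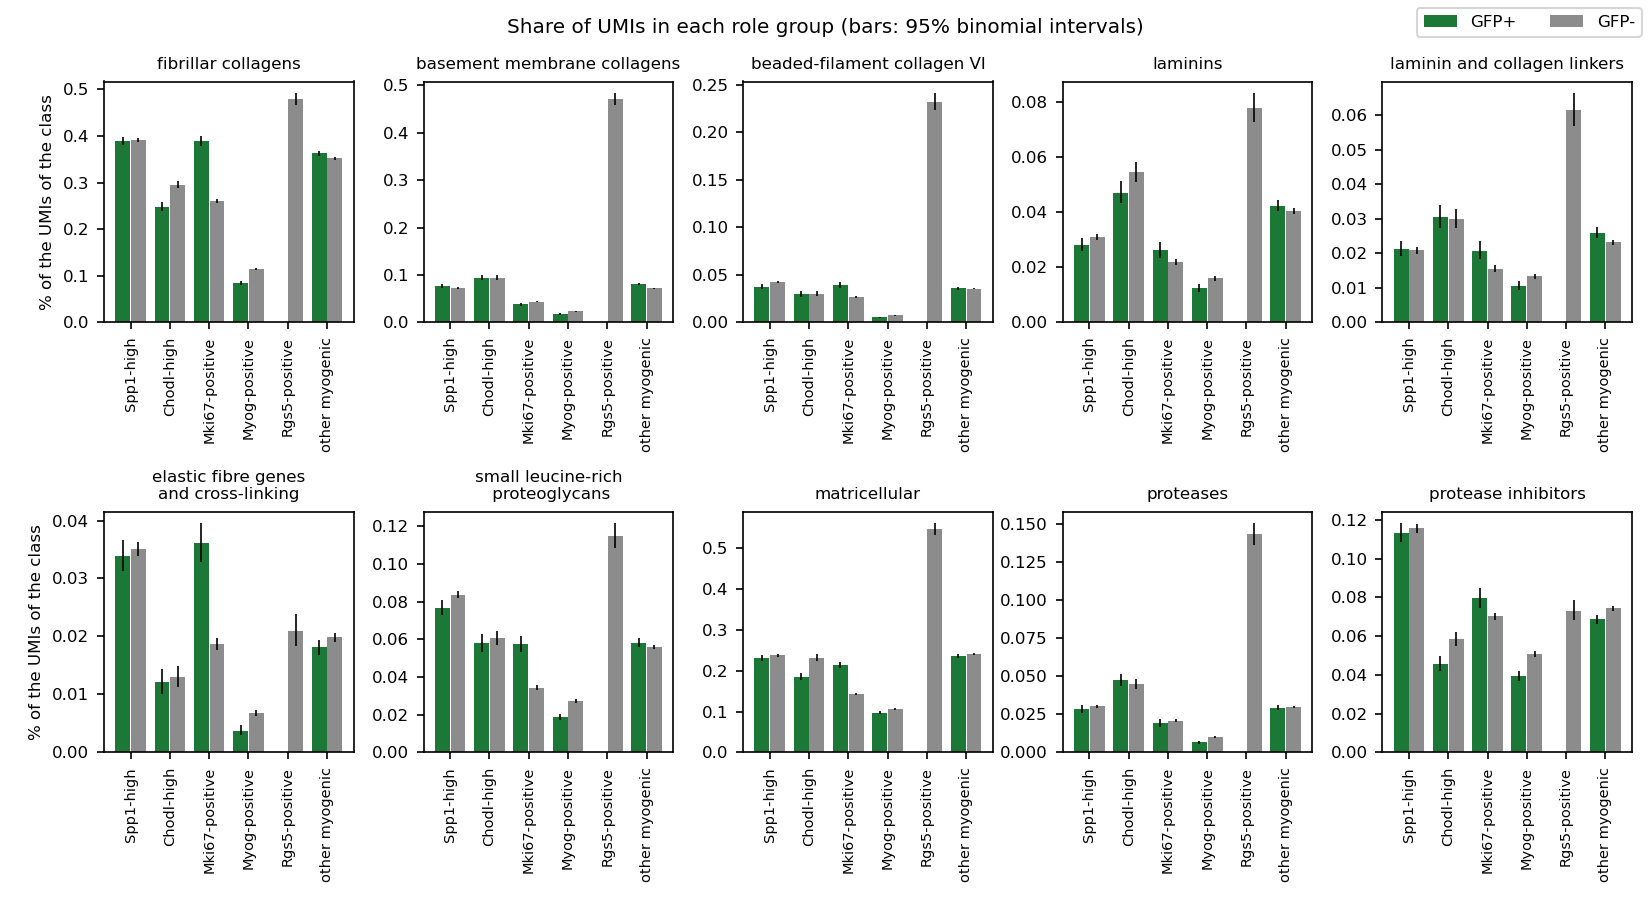
Share of all UMIs (percent, vertical axes, which differ in range) taken by each functional group of the 41 genes, by cell class, for GFP+ (green) and GFP- (grey) cells, with 95% binomial intervals. Basement membrane collagens held 0.0941% of UMIs in GFP+ and 0.0943% in GFP- Chodl-high cells, against 0.0178% in GFP+ and 0.0230% in GFP- Myog-positive cells. The GFP+ Mki67-positive bars include 1 cell with fibroblast genes, which held 669 of the 896 Col1a1 UMIs of that class.

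Class differences were tested with edgeR's quasi-likelihood test on UMIs summed per class and library, with library as a block and Benjamini-Hochberg adjustment over 11745 genes. Each myogenic class was set against the mean of the other 4 myogenic classes, and Rgs5-positive cells against the mean of all 5. All 41 genes passed the filter on low counts. The libraries are the 2 sorted fractions and not replicates, so the error is how far a class difference varied between the sorts, on 4 residual degrees of freedom. The test drew each gene's error toward that of the other genes, with a median prior of 13.6 degrees of freedom. Called means an adjusted p under 0.05. The mean of the other classes includes Myog-positive cells, in which most of these genes were low, so a class can be above that mean without being above the other myogenic cells. Calls against the other myogenic cells alone, an alternative added after the data were seen, are therefore given beside those of the Spp1-high, Chodl-high and Mki67-positive classes.

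**Figure D2:**
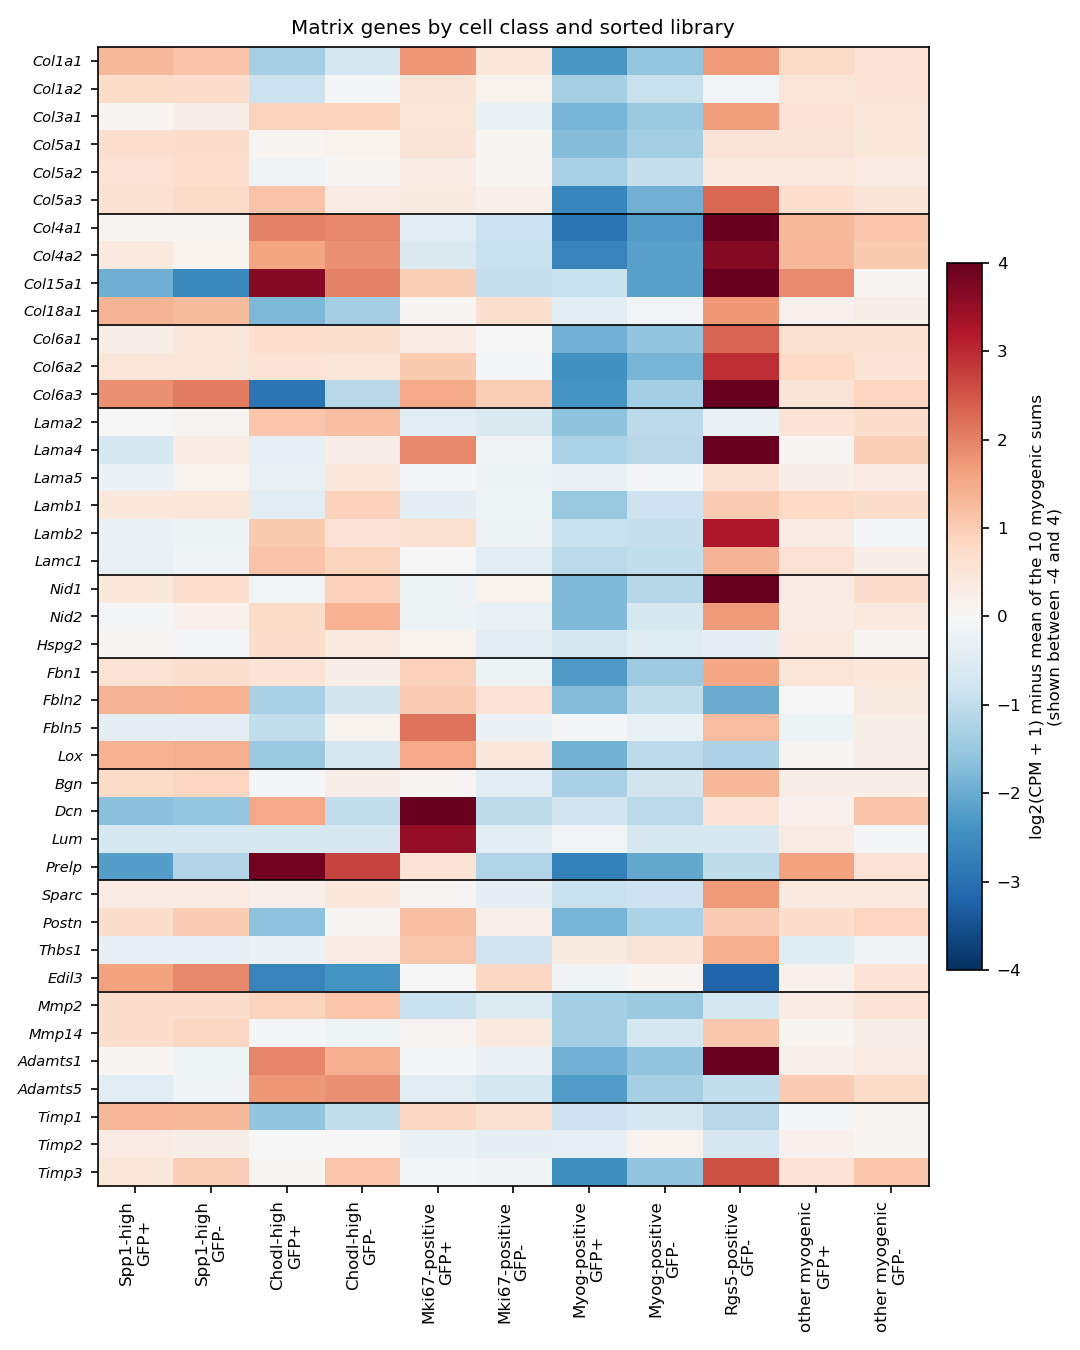
Level of each of the 41 genes (rows, grouped by function) in each class and library (columns), as log2(CPM + 1) minus the gene's mean over the 10 myogenic sums, with colour limited to -4 and 4. The Myog-positive columns are low for nearly all rows, Col4a1, Col4a2, Col15a1 and Prelp are high in the Chodl-high columns, and Dcn and Lum stand out in the GFP+ Mki67-positive column.

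Chodl-high cells carried more RNA of collagen IV, Col15a1, several laminins and 3 proteases, and less of Col18a1, Col6a3, collagen I, Timp1 and Edil3. Of the 41 genes, 20 were higher and 8 lower, where 17.3% of all genes tested were higher and 17.1% lower. The median log2 fold change of the members was 0.52, against -0.02 for all genes. By function, 3 of 4 basement membrane collagens, 4 of 6 laminins, all 3 linkers and 3 of 4 proteases were higher, while 2 fibrillar collagens were higher and 2 lower, and 2 collagen VI chains were higher and 1 lower. Against the other myogenic cells alone, 11 members were higher and 8 lower, where 6.07% of all genes were higher and 5.98% lower. The 11 were Col4a1, Col4a2, Col15a1, Lama2, Lamb2, Lamc1, Nid2, Prelp, Mmp2, Adamts1 and Adamts5, all of which were also called against the mean. Both collagen IV chains, which form the network at the core of the sheet, were among them. Col4a1 stood at 548 CPM in GFP+ and 532 CPM in GFP- Chodl-high cells, against 344 CPM in GFP+ and 300 CPM in GFP- other myogenic cells. Its log2 fold change was 2.47 ± 0.11 (SE), with adjusted p = 8.1e-12, and 0.80 ± 0.14 (adjusted p = 0.00082) against the other myogenic cells alone. Col4a2 stood at 262 CPM in GFP+ and 311 CPM in GFP- Chodl-high cells, against 221 and 180 CPM in GFP+ and GFP- other myogenic cells (log2 fold change 2.20 ± 0.12, adjusted p = 1.5e-10). Both genes were higher in Chodl-high cells in each sort. After each cell was thinned to 5000 UMIs, 69 of 86 GFP+ (80.2%) and 111 of 146 GFP- (76.0%) Chodl-high cells had a Col4a1 UMI, with 32 and 35 shallower GFP+ and GFP- cells left out. Without thinning these shares were 74.6% in GFP+ and 82.3% in GFP- cells. Macrophage-like cells, thinned alike, had a Col4a1 UMI in 0 of 69 GFP+ cells, or 4.35% with 0 taken as 3 cells, and in 3 of 44 GFP- cells. The median depth was 7330.5 UMIs in GFP+ and 9285 in GFP- Chodl-high cells, and 13558 in GFP+ and 8086 in GFP- macrophage-like cells.

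Col15a1 (ENSMUSG00000028339, chr4:47208161-47313167, plus strand) encodes a collagen that bridges basement membranes to the interstitium. It had 82 UMIs (74.0 CPM) in GFP+ and 37 UMIs (22.6 CPM) in GFP- Chodl-high cells, against 1 UMI in GFP+ and 0 UMIs in GFP- Spp1-high cells. GFP+ Chodl-high cells were thus 137.5-fold above GFP+ Spp1-high cells, with a counting interval of 24.01 to 5498, and GFP- Chodl-high cells at least 70.8-fold above GFP- Spp1-high cells taken at a floor of 3 UMIs, where the exact interval of the ratio begins at 54.8. Other myogenic cells had 21.1 CPM in GFP+ and 5.19 CPM in GFP-. The log2 fold change in Chodl-high cells was 4.66 ± 0.26 (adjusted p = 1.9e-10). A Col15a1 UMI was found, after thinning to 5000 UMIs, in 24.4% of GFP+ and 8.90% of GFP- Chodl-high cells, against 0 of 66 GFP+ and 0 of 521 GFP- Spp1-high cells. Prelp (ENSMUSG00000041577, chr1:133910304-133921414, minus strand) encodes a leucine-rich proteoglycan that binds perlecan and collagens. Its level was 137 CPM in GFP+ and 61.1 CPM in GFP- Chodl-high cells, against 28.0 CPM in GFP+ and 13.1 CPM in GFP- other myogenic cells (log2 fold change 4.32 ± 0.26, adjusted p = 4.6e-10). For both genes every other myogenic class lay below Chodl-high cells of the same sort.

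Laminins are built of alpha, beta and gamma chains. Lama2, the alpha chain of the main muscle laminins, stood at 171 CPM in GFP+ and 186 CPM in GFP- Chodl-high cells, against 117 and 130 CPM in GFP+ and GFP- other myogenic cells. Its log2 fold change was 1.495 ± 0.110 (adjusted p = 8.5e-09). Lamc1, the gamma chain of most laminins, had a log2 fold change of 1.30 ± 0.12 (adjusted p = 9.6e-08), and Lamb2 one of 1.09 ± 0.19 (adjusted p = 0.00023). Lamb1 was called with an adjusted p of 0.042, yet its 2 libraries went opposite ways against all other myogenic cells: 49.6 CPM in GFP+ Chodl-high cells, against 80.9 CPM in the other GFP+ cells, and 127.8 CPM in GFP- Chodl-high cells, against 80.4 CPM in the other GFP- cells. Its call was lost under 4 of the alternative settings tried. Of the linkers, Nid2 had a log2 fold change of 1.46 ± 0.22 (adjusted p = 4.4e-05), Nid1 of 0.70 (adjusted p = 0.0053) and Hspg2, the perlecan gene, of 0.71 ± 0.12 (adjusted p = 0.00013). Nid2 overlaps the more abundant Rtraf gene on the opposite strand, so its counts are uncertain. Nid1 lost its call with stricter limits of the classes, and its sorts too went opposite ways: it stood at 24.4 CPM in GFP+ and 51.4 CPM in GFP- Chodl-high cells, against 33.7 and 43.8 CPM in GFP+ and GFP- other myogenic cells. Neither Lamb1, Nid1 nor Hspg2 was called against the other myogenic cells alone.

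Of the proteases, Adamts5 and Adamts1, enzymes that cut proteoglycans such as versican, were both higher. Adamts5 stood at 195 CPM in GFP+ and 208 CPM in GFP- Chodl-high cells, against 118 and 96.8 CPM in GFP+ and GFP- other myogenic cells (log2 fold change 2.25 ± 0.14, adjusted p = 9.8e-10). Adamts1 stood at 135 CPM in GFP+ and 95.4 CPM in GFP- Chodl-high cells, against 39.5 and 43.2 CPM in GFP+ and GFP- other myogenic cells (log2 fold change 2.18 ± 0.14, adjusted p = 1.1e-09). Mmp2, a gelatinase, had a log2 fold change of 1.36 ± 0.15 (adjusted p = 8.9e-07), while Mmp14, which activates it, had -0.17 and was not called. Among the other members, Col3a1 was higher by 1.13 ± 0.12 (adjusted p = 9.1e-07), and Col5a3, Timp3, Col6a1, Col6a2 and Sparc by 0.93, 0.88, 0.86, 0.67 and 0.43 on the log2 scale. None of these 6 was called against the other myogenic cells alone. Col6a2 stood at 75.8 CPM in GFP+ and 72.1 CPM in GFP- Chodl-high cells, below the 89.5 and 76.6 CPM of GFP+ and GFP- other myogenic cells, and Timp3, Sparc and Col5a3 were below them in 1 sort.

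Members lower in Chodl-high cells were Edil3, Col6a3, Col18a1, Timp1, Lox, Fbln2, Col1a1 and Col1a2. Edil3 encodes an integrin-binding matrix protein and had 2 UMIs (1.80 CPM) in GFP+ and 4 UMIs (2.45 CPM) in GFP- Chodl-high cells, against 19.4 and 25.4 CPM in GFP+ and GFP- other myogenic cells (log2 fold change -3.63 ± 0.36, adjusted p = 3.2e-07). Col6a3, a long chain of collagen VI, stood at 4.51 CPM in GFP+ and 18.3 CPM in GFP- Chodl-high cells, against 58.4 and 74.6 CPM in GFP+ and GFP- other myogenic cells (log2 fold change -2.20 ± 0.32, adjusted p = 3.5e-05). The chains Col6a1 and Col6a2 were not lower in that test, and the UMIs of Col6a3 per UMI of Col6a1 were 0.0208 in GFP+ and 0.0877 in GFP- Chodl-high cells, against 0.281 in GFP+ and 0.366 in GFP- other myogenic cells. Col18a1, the endostatin-bearing basement membrane collagen, stood at 55.9 CPM in GFP+ and 77.0 CPM in GFP- Chodl-high cells, against 223 and 235 CPM in GFP+ and GFP- other myogenic cells, so it was the 1 basement membrane collagen that was lower (log2 fold change -1.94 ± 0.15, adjusted p = 1.6e-08). Timp1 had a log2 fold change of -1.51 ± 0.13 (adjusted p = 8.2e-08) and Col1a1 of -1.21 ± 0.27 (adjusted p = 0.0018). Col1a2 was lower by the least, at -0.48 ± 0.14, and lost its call in 2 of the alternatives. Against the other myogenic cells alone, 7 of these 8 were called lower, Lox having an adjusted p of 0.052, and Postn was called as well.

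Fibroblast markers differed within this class. Of the 4 fixed fibroblast markers, Dpt stood at 142 CPM in GFP+ and 96.6 CPM in GFP- Chodl-high cells, while Pdgfra had 0 UMIs in both, Clec3b 1 UMI in GFP+ and 0 in GFP-, and Pi16 1 UMI in GFP+ and 0 in GFP-. The list summed to 143 CPM in GFP+ and 96.6 CPM in GFP- Chodl-high cells, against 50.02 and 21.3 CPM in GFP+ and GFP- other myogenic cells. The 9 mural markers summed to 549 CPM in GFP+ and 522 CPM in GFP- Chodl-high cells, against 972 and 974 CPM in GFP+ and GFP- other myogenic cells, and Rgs5 itself had 1 UMI in GFP+ and 10 UMIs in GFP- Chodl-high cells. Within these sums Acta2 was lower, at 228 and 210 CPM in GFP+ and GFP- Chodl-high cells, against 798 and 761 CPM. Notch3 was higher, at 312 and 283 CPM, against 158 and 179 CPM. The 5 endothelial markers summed to 0.902 CPM in GFP+ and 1.22 CPM in GFP- Chodl-high cells. The part of Dpt-expressing cells and of the lower depth of this class in the result was not tested.

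In Spp1-high cells Col6a3, Edil3, Timp1, Col18a1, Lox, Fbln2, Mmp14 and Bgn were higher by both references used. Of the 41 genes, 22 were higher and 2 lower, where 9.19% of all genes were higher and 6.4% lower. The median log2 fold change was 0.45, against -0.01 for all genes. By function, 5 of 6 fibrillar collagens, all 3 collagen VI chains, 3 of 4 elastic fibre genes and all 3 TIMP genes were higher, and none of the 6 laminins passed the test in either direction. Col6a2 and Timp2 lost their calls in 2 and 3 of 10 alternatives. Against the other myogenic cells alone, those 8 members were higher and 7 lower, where 2.89% of all genes were higher and 3.42% lower. The 7 were Col4a1 (log2 fold change -1.13 ± 0.14, adjusted p = 5.2e-05), Col4a2, Col15a1, Lama2, Lamc1, Prelp and Adamts5. Of the 22 called against the mean, Col6a1, Col6a2, Sparc and Timp3 were below the other myogenic cells in both sorts, such as Col6a1 at 159 CPM in GFP+ and 182 CPM in GFP- Spp1-high cells, against 208 and 204 CPM in GFP+ and GFP- other myogenic cells. Of the 33 members at 20 CPM or more in at least 1 sort, 0 differed by 1.5-fold or more between GFP+ and GFP- Spp1-high cells. Few genes of any kind did so: 3.46% of 5718 genes were higher and 4.56% lower in GFP+ Spp1-high cells.

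Col6a3 (ENSMUSG00000048126, chr1:90765923-90843971, minus strand) stood at 145 CPM in GFP+ and 170 CPM in GFP- Spp1-high cells, against 58.4 and 74.6 CPM in GFP+ and GFP- other myogenic cells, with a log2 fold change of 2.31 ± 0.16 (adjusted p = 2.1e-08). Edil3 (ENSMUSG00000034488, chr13:88821472-89323223, plus strand) stood at 53.8 CPM in GFP+ and 67.0 CPM in GFP- Spp1-high cells, against 19.4 and 25.4 CPM in GFP+ and GFP- other myogenic cells (log2 fold change 2.30 ± 0.13, adjusted p = 3e-09). These genes were thus high where Spp1 is high and low where Chodl is high in both sorts. Timp1, a secreted metalloproteinase inhibitor, stood at 673 CPM in GFP+ and 668 CPM in GFP- Spp1-high cells, against 253 and 284 CPM in GFP+ and GFP- other myogenic cells (log2 fold change 1.61 ± 0.10, adjusted p = 3.5e-09). Col18a1 stood at 507 CPM in GFP+ and 482 CPM in GFP- Spp1-high cells, with a log2 fold change of 1.61 ± 0.10 (adjusted p = 6.7e-09).

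Lox, which cross-links collagen and elastin, had a log2 fold change of 1.71 ± 0.19 in Spp1-high cells (adjusted p = 5.9e-06), and Fbln2, an elastic fibre and basement membrane protein, one of 1.68 ± 0.14 (adjusted p = 2.5e-07). Collagen I forms the main interstitial fibre. Col1a1 (ENSMUSG00000001506, chr11:94936224-94953042, plus strand) stood at 545 CPM in GFP+ and 479 CPM in GFP- Spp1-high cells, against 370 and 323 CPM in GFP+ and GFP- other myogenic cells (log2 fold change 1.43 ± 0.20, adjusted p = 7.3e-05, and 0.57 with adjusted p = 0.27 against the other myogenic cells alone). Col1a2, its partner chain, stood at 1835 CPM in GFP+ and 1786 CPM in GFP- Spp1-high cells, against 1547 and 1609 CPM in GFP+ and GFP- other myogenic cells (log2 fold change 0.86 ± 0.13). The UMIs of Col1a1 per UMI of Col1a2 were 0.297 in GFP+ and 0.268 in GFP- Spp1-high cells and 0.142 and 0.125 in GFP+ and GFP- Chodl-high cells, against 0.239 and 0.201 in GFP+ and GFP- other myogenic cells. Fibroblast-like cells, 5 GFP+ and 4 GFP-, had 1.40 and 1.19 for the same ratio in GFP+ and GFP-. The remaining 14 members higher in Spp1-high cells lay between 0.32 (Timp2) and 0.99 (Bgn) on the log2 scale. Col15a1 was lower, at 1 UMI in GFP+ and 0 UMIs in GFP- Spp1-high cells as above, and Prelp was lower at 1.08 CPM in GFP+ and 3.19 CPM in GFP- Spp1-high cells, with an adjusted p of 0.0054 that was lost under 2 alternatives.

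Setting the classes against each other, a contrast added after the values were seen, 12 of the 41 genes were higher and 13 lower in Chodl-high than in Spp1-high cells, where 13.2% of all genes were higher and 13.3% lower. Against the other classes, 8 genes were higher in Spp1-high and lower in Chodl-high cells, 2 (Col15a1 and Prelp) the reverse, and 7 were higher in both. Each class is among those the other is set against, so opposite signs in those contrasts are in part built in, and the low Myog-positive cells favour a shared higher call, which the direct contrast avoids. There, Col4a1 was higher in Chodl-high cells by 1.93 ± 0.15 (adjusted p = 1.8e-08), Col4a2 by 1.54 ± 0.16 (adjusted p = 6.9e-07), Adamts5 by 2.09 ± 0.18 (adjusted p = 1.2e-07) and Lama2 by 1.16 ± 0.14 (adjusted p = 4.8e-06) on the log2 scale. Lower in Chodl-high cells were Edil3 at -4.74 ± 0.33 (adjusted p = 6.2e-09), Col6a3 at -3.61 ± 0.32 (adjusted p = 1.3e-07), Col18a1 at -2.84 ± 0.17 (adjusted p = 9.6e-10) and Timp1 at -2.50 ± 0.15 (adjusted p = 1.3e-09). Of the fibrillar collagens 1 (Col3a1) was higher and 4 lower, and of the laminins 3 were higher and 0 lower.

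**Figure D3:**
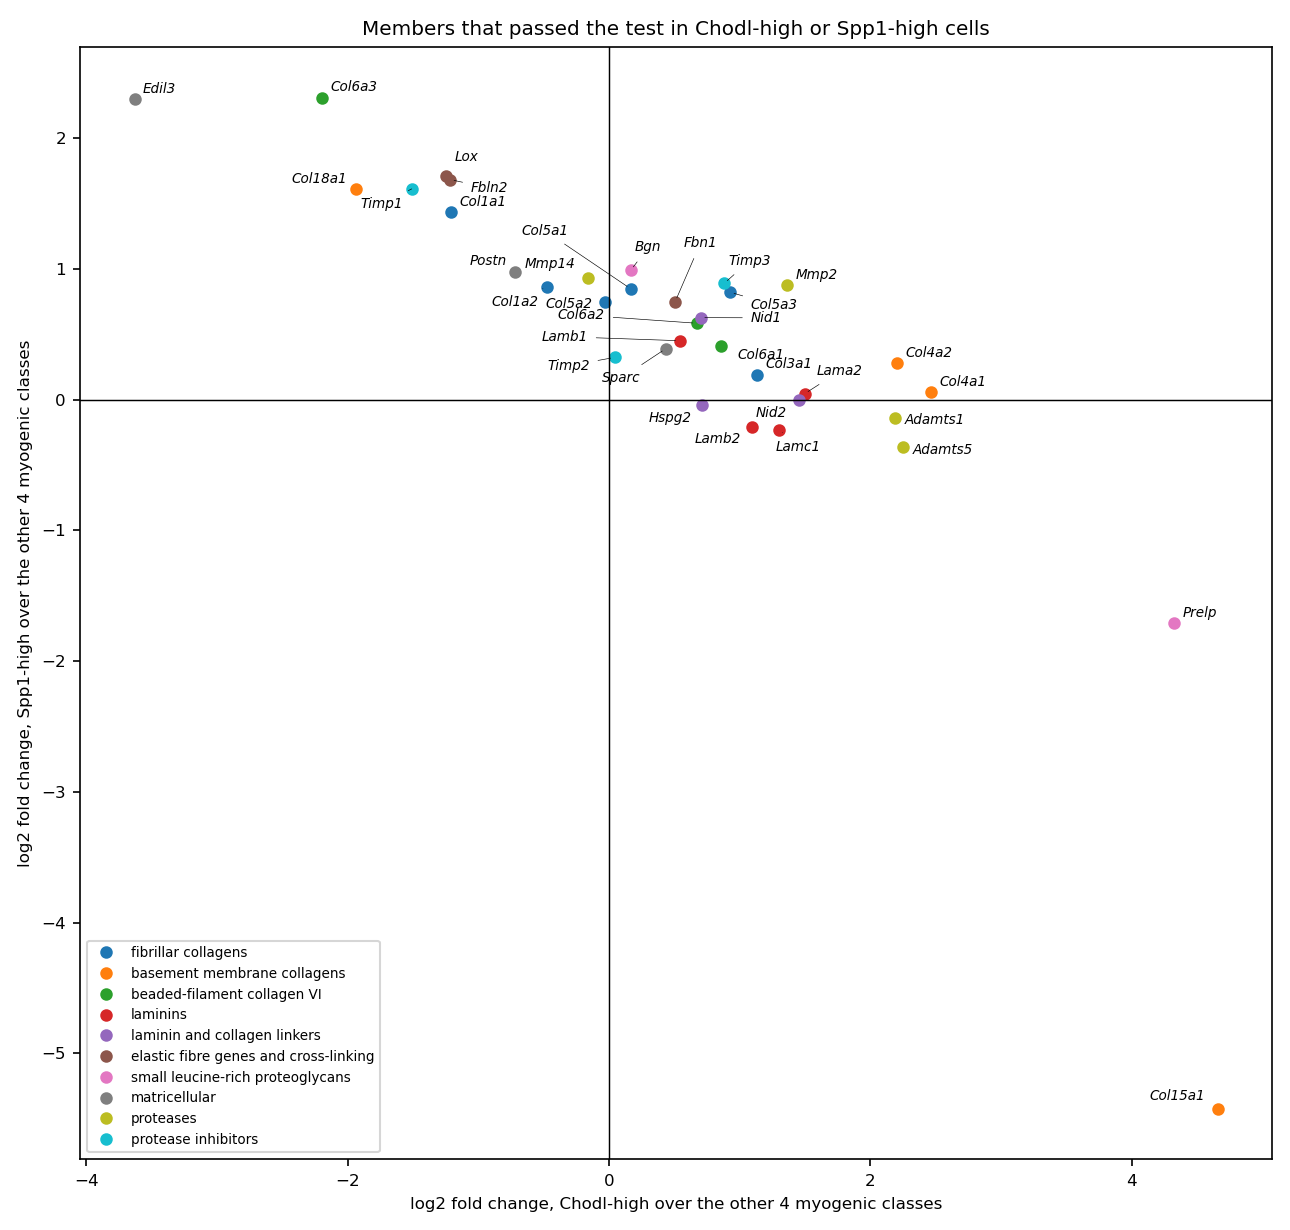
Log2 fold change in Chodl-high cells (horizontal axis) and in Spp1-high cells (vertical axis), each over the mean of the other 4 myogenic classes, for the genes called in at least 1 of these contrasts. Edil3, Col6a3, Col18a1 and Timp1 lie at upper left, Col15a1 and Prelp at lower right, and opposite signs are in part built in, since each class is part of what the other is set against.

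Myog-positive cells had less RNA of nearly the whole list. Of the 41 genes, 34 were lower and 1 higher, where 21.2% of all genes were lower and 22.8% higher, and the median log2 fold change was -1.60, against -0.03 for all genes. All 6 fibrillar collagens, all 4 basement membrane collagens, all 3 collagen VI chains, 5 of 6 laminins, all 3 linkers and all 4 proteases were lower. Among these, Col15a1 and Col18a1 lost their calls in 3 and 4 of 10 alternatives. The level was below that of all other myogenic cells in both sorts for 39 of the 41 genes. Col4a1 stood at 17.6 CPM in GFP+ and 28.7 CPM in GFP- Myog-positive cells, against 344 and 300 CPM in GFP+ and GFP- other myogenic cells (log2 fold change -3.02 ± 0.15, adjusted p = 2.2e-11). Col3a1, the collagen III chain, stood at 170 CPM in GFP+ and 220 CPM in GFP- Myog-positive cells, against 931 and 846 CPM in GFP+ and GFP- other myogenic cells (log2 fold change -2.004 ± 0.148, adjusted p = 5.4e-09). Sparc, a collagen-binding matricellular protein, stood at 816 CPM in GFP+ and 859 CPM in GFP- Myog-positive cells, against 2008 and 1998 CPM in GFP+ and GFP- other myogenic cells (log2 fold change -1.01 ± 0.09, adjusted p = 5.7e-08).

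The 6 genes of the list that were not called in Myog-positive cells were Lama5 (log2 fold change -0.15 ± 0.13), Timp2 (-0.03 ± 0.10), Edil3 (0.08 ± 0.18) and the scarce Fbln5, Dcn and Lum. Timp2, an inhibitor that also takes part in the activation of Mmp2, stood at 232 CPM in GFP+ and 318 CPM in GFP- Myog-positive cells, against 326 and 304 CPM in GFP+ and GFP- other myogenic cells. Thbs1, the matricellular protein thrombospondin-1, was the 1 gene called higher. It stood at 99.5 CPM in GFP+ and 113 CPM in GFP- Myog-positive cells, against 54.8 and 70.6 CPM in GFP+ and GFP- other myogenic cells (log2 fold change 0.63 ± 0.25, adjusted p = 0.045). This call was lost under 6 of the 10 alternatives, over which its adjusted p ran from 2.6e-08 to 0.44. The mural list summed to 3470 CPM in GFP+ and 3301 CPM in GFP- Myog-positive cells, against 972 and 974 CPM in GFP+ and GFP- other myogenic cells. Acta2 alone gave 3450 and 3254 CPM of the Myog-positive sums, against 798 and 761 CPM in other myogenic cells. Abcc9 was also higher, at 6.60 and 6.68 CPM against 1.44 and 1.35 CPM. Notch3 was lower, at 8.37 and 32.2 CPM against 158 and 179 CPM, and so was Pdgfrb, at 0 and 0.849 CPM against 5.27 and 9.91 CPM. Rgs5 had 1 UMI in GFP+ and 24 UMIs in GFP- Myog-positive cells, and the part of these genes in the result was not tested.

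Rgs5-positive cells had the highest share of matrix RNA of the 6 classes tested. Of the 41 genes, 22 were higher and 7 lower than in the mean of the 5 myogenic classes, where 19.2% of all genes were higher and 15.2% lower, with a median log2 fold change of 1.35, against -0.07 for all genes. This contrast rests on 1 sum from the GFP- library, which was assumed to vary like the others, and scaling by library totals shifted the median of all genes in it by 0.17. All 4 basement membrane collagens were higher. Col4a1 stood at 2512 CPM (log2 fold change 4.03 ± 0.12, adjusted p = 1.3e-14) and Col4a2 at 1119 CPM (3.56 ± 0.13, adjusted p = 2.7e-13). Col15a1 stood at 415 CPM in Rgs5-positive cells, against 74.0 and 22.6 CPM in GFP+ and GFP- Chodl-high cells (log2 fold change 7.90 ± 0.17, adjusted p = 1.3e-16). Lama4, the alpha chain of vessel wall laminins, stood at 121 CPM, against 1.44 and 3.64 CPM in GFP+ and GFP- other myogenic cells (log2 fold change 6.52 ± 0.46, adjusted p = 2.3e-09). Adamts1 stood at 1180 CPM (log2 fold change 4.99 ± 0.12, adjusted p = 3.9e-16), Nid1 at 439 CPM (3.65 ± 0.14, adjusted p = 2.9e-13) and Col6a3 at 1238 CPM (4.58 ± 0.18, adjusted p = 3.7e-13).

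Rgs5-positive cells did not carry every gene that was high in Chodl-high cells. Prelp stood at 3.73 CPM and Adamts5 at 28.9 CPM in Rgs5-positive cells, and Adamts5 was lower there (log2 fold change -1.23 ± 0.33, adjusted p = 0.0076). Lama2 stood at 66.2 CPM with a log2 fold change of -0.51 that was not called. Edil3, Fbln2, Lox, Timp1, Mmp2 and Timp2 were the other 6 lower members, from -4.46 for Edil3 to -0.86 for Timp2. Calls of Mmp2 and Lox were lost under 5 and 4 of 10 alternatives.

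Mki67-positive cells had 10 members higher and 8 lower of 41, where 18.5% of all genes were higher and 13.4% lower, and these counts depend on a single cell. Of the 33 GFP+ Mki67-positive cells, 1 cell with 75199 UMIs held 73 of the 74 Dcn UMIs, 20 of the 21 Lum UMIs, 669 of the 896 Col1a1 UMIs, 497 of the 1069 Col3a1 UMIs and 219 of the 496 Postn UMIs. It had 0 UMIs of Pax7 and Myf5, which mark satellite cells, and 2 of Pdgfra, a fibroblast receptor. With this cell alone left out, an alternative added after the data were seen, 6 members were higher and 16 lower of the 39 still tested, where 19% of all genes were higher and 14.2% lower. The counts were also 6 and 16, where 18.9% of all genes were higher and 14.3% lower, with all 5 cells of at least 5 UMIs of Dcn, Lum and Pdgfra in sum left out, which are this cell, 1 GFP+ and 3 GFP- other myogenic cells. Against the other myogenic cells alone, with every cell kept, 3 members (Timp1, Lox and Fbln2) were higher and 19 lower, where 16.1% of all genes were higher and 13.5% lower. The median log2 fold change of the members against the mean was 0.09 with these 5 cells and -0.23 without them.

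Lower in Mki67-positive cells with and without that cell were the collagen IV genes, Lama2, Lamc1, Mmp2, Adamts5, Sparc and Timp2, of which Lamc1 and Sparc lost their calls in 4 of 10 alternatives. Col4a1 stood at 101 CPM in GFP+ and 75.9 CPM in GFP- Mki67-positive cells, against 344 and 300 CPM in GFP+ and GFP- other myogenic cells (log2 fold change -0.96 ± 0.13, adjusted p = 1.9e-05, and -0.99 without the cells). Col4a2 had a log2 fold change of -1.05 ± 0.15 (adjusted p = 2.1e-05), and Lama2 of -0.78 ± 0.12 (adjusted p = 6.9e-05). Higher with and without it were Col6a3, Timp1, Edil3, Fbln2, Lox and Col18a1, all of which were also higher in Spp1-high cells by both references. Of the cells past the Mki67 limit, 11 of 38 GFP+ and 148 of 291 GFP- cells also passed the Myog, Chodl or Spp1 limit. Spp1 stood at 1279 CPM in GFP+ and 2369 CPM in GFP- Mki67-positive cells, against 370 and 481 CPM in GFP+ and GFP- other myogenic cells. The part of high Spp1 in these 6 calls was not tested. Timp1 stood at 482 CPM in GFP+ and 412 CPM in GFP- Mki67-positive cells, against 253 and 284 CPM in GFP+ and GFP- other myogenic cells (log2 fold change 0.83 ± 0.10, adjusted p = 6e-06, and 0.69 without the cells). Col1a1 was called at 1.28 ± 0.21 (adjusted p = 0.00013) and had 0.37 without the cells (adjusted p = 0.058), and Postn and Dcn lost their calls likewise. A further cell held 405 of the 2044 Col1a1 UMIs of GFP- Mki67-positive cells and was not among the cells left out. Thbs1 stood at 0.03 and at -1.03 without the cells, and Col3a1 at 0.07 and at -0.33. Calls of Edil3, Fbln2 and Col18a1 were also lost when cells that passed a pair of class limits were left out. Over the 10 alternatives Edil3 kept its call in 7, Col18a1 in 8 and Fbln2 in 9.

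**Figure D4:**
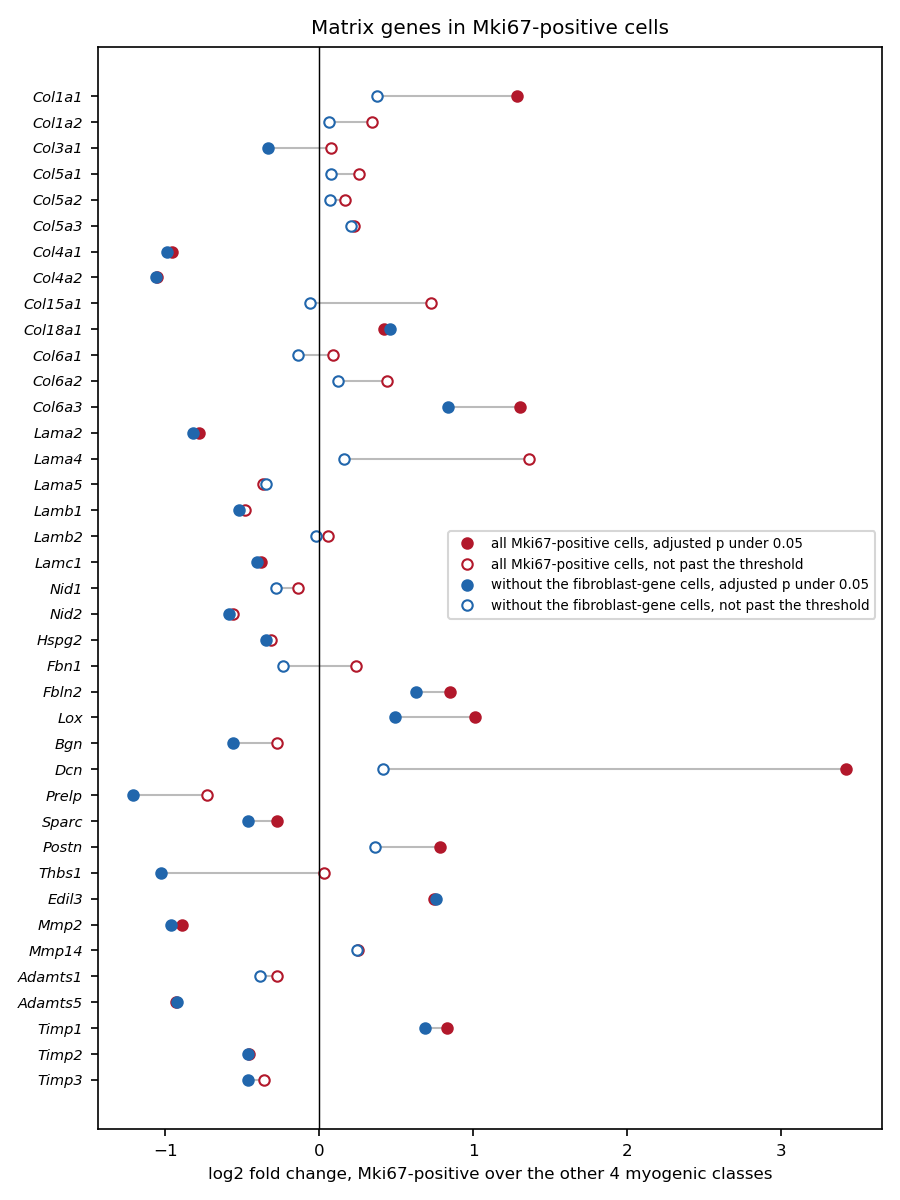
Log2 fold change of each gene in Mki67-positive cells over the mean of the other 4 myogenic classes, with all cells and with cells carrying at least 5 UMIs of Dcn, Lum and Pdgfra left out. Filled points are called. Col1a1 lies at 1.28 with all cells and at 0.37 without these, Thbs1 at 0.03 and at -1.03, and Col4a1 at -0.96 and at -0.99.

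GFP+ and GFP- myogenic cells as a whole differed little in these genes. Of the 35 genes at 20 CPM or more in at least 1 sort, 1 was 1.5-fold or more higher and 0 were lower in GFP+ cells, where 3.87% of 5791 genes were higher and 1.54% lower. The median log2 ratio of the members was 0.01, against -0.09 for all genes. Counting intervals lay above 1 for 17 and below 1 for 11 of the 41 genes, but with 1 library in each group no interval covers differences between animals. With cells of at least 5 UMIs of Dcn, Lum and Pdgfra in sum left out, intervals lay above 1 for 15 and below 1 for 15 members. The median log2 ratio of the members was then -0.01. Prelp was the 1 gene past the limit, with 288 UMIs (27.0 CPM) in GFP+ and 358 UMIs (8.46 CPM) in GFP- cells, a ratio of 3.19 (2.72 to 3.74). Col15a1 had 189 UMIs (17.7 CPM) in GFP+ and 132 UMIs (3.12 CPM) in GFP- cells, a ratio of 5.68 (4.53 to 7.15), below the level minimum. With equal weight for the 5 classes in both sorts these ratios were 2.19 for Prelp and 3.58 for Col15a1. Col4a1 stood at 234 CPM in GFP+ and 176 CPM in GFP- cells, a ratio of 1.33 (1.27 to 1.39), and at 1.08 with equal class weights. Col4a2 stood at 143 CPM in GFP+ and 108 CPM in GFP- cells, a ratio of 1.32, and at 1.02 with equal weights. Chodl-high cells were 22.6% of GFP+ and 7.26% of GFP- myogenic cells.

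**Figure D5:**
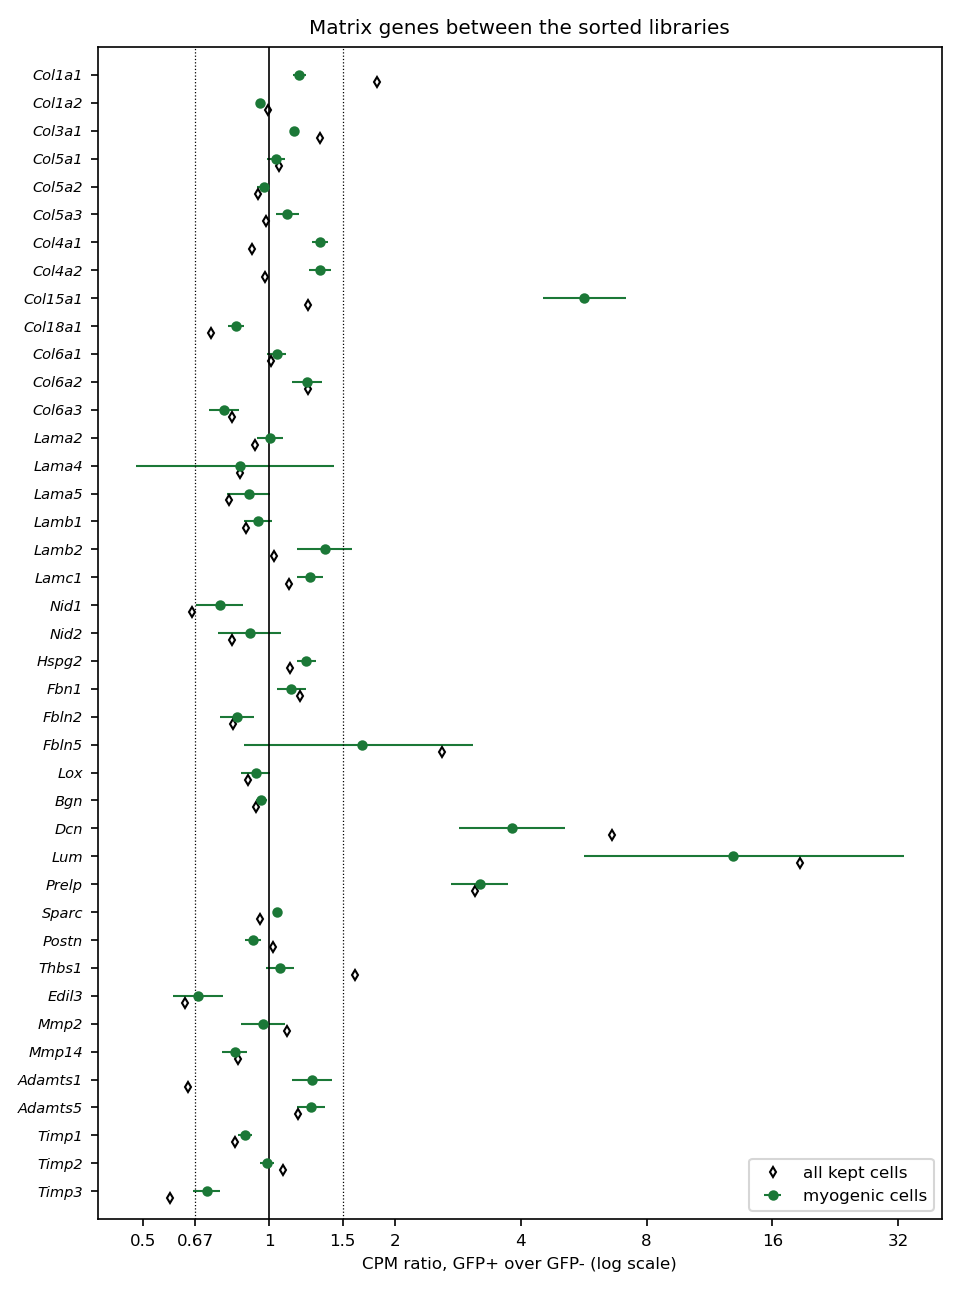
Ratio of GFP+ to GFP- CPM for each of the 41 genes in myogenic cells (log axis), with 95% counting intervals that cover neither animals nor libraries (filled points), and in all kept cells (open diamonds); dotted lines mark 1.5-fold. Prelp lies at 3.19 and Col15a1 at 5.68, and Edil3 at 0.678 and Timp3 at 0.711 lie below 1.

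Over all kept cells, 5 members were 1.5-fold or more higher and 4 lower in GFP+ cells, where 6.94% of 6007 genes were higher and 2.63% lower. Among these members, other cell types held over 40% of the GFP+ UMIs of Col1a1, Dcn, Lum and Thbs1 and of the GFP- UMIs of Adamts1. They also held 58.5% of the GFP- UMIs of Dcn and 84.3% of those of Lum. Col1a1 stood at 574 CPM in GFP+ and 316 CPM in GFP- cells, a ratio of 1.82, yet 5 fibroblast-like cells held 46.8% of the GFP+ Col1a1 UMIs and 77.7% of the GFP+ Dcn UMIs. Dcn had a ratio of 6.61, Lum of 18.6 and Prelp of 3.11. Thbs1 stood at 143 CPM in GFP+ and 88.7 CPM in GFP- cells, and macrophage-like cells held 49.0% of its GFP+ and 13.3% of its GFP- UMIs. Without fibroblast-like cells 2 members were higher. The lower ones were Nid1 (0.655), Edil3 (0.631), Adamts1 (0.640) and Timp3 (0.581). Rgs5-positive cells held 67.6% of the GFP- UMIs of Col15a1, 45.6% of those of Adamts1, 25.6% of those of Col4a1 and 23.4% of those of Nid1, and without these cells 2 members were lower. Col4a1 thus stood at 217 CPM in GFP+ and 238 CPM in GFP- over all kept cells, a ratio of 0.912 (0.873 to 0.952), the opposite direction to that in myogenic cells.

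Within classes, the number of members past the limit between the sorts ran from 0 to 13. In Chodl-high cells 3 members were higher and 10 lower in GFP+, where 11.3% of genes were higher and 11.1% lower. Higher were Col15a1 at 3.27-fold (2.19 to 4.96), Prelp at 2.24-fold (1.73 to 2.92) and Col5a3 at 1.81-fold (1.49 to 2.20). Among the lower, Postn, a matricellular protein of healing tissue, stood at 55.0 CPM in GFP+ and 178 CPM in GFP- Chodl-high cells, a ratio of 0.309 (0.231 to 0.409). Lamb1 had a ratio of 0.388 (0.283 to 0.525), and the rest ran from 0.474 for Nid1 to 0.661 for Timp1. In Myog-positive cells 0 members were higher and 12 lower in GFP+, where 4.04% of genes were higher and 8.36% lower, with Timp3 at 0.528 (0.343 to 0.785) and Adamts5 at 0.509 (0.325 to 0.767). In other myogenic cells Col15a1 at 4.06-fold (2.95 to 5.58) and Prelp at 2.14-fold (1.69 to 2.71) were the 2 members past the limit, where 3.76% of genes were higher and 1.68% lower. In Mki67-positive cells 10 were higher and 1 lower, where 7.08% were higher and 5.72% lower, with the cell described above in the GFP+ class. In Spp1-high cells the background was 3.46% higher and 4.56% lower.

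Genes that assemble, bind or cut this matrix were counted in lists written down with the members. The shares of all genes higher and lower, against which the counts stand, were 9.19% and 6.4% in Spp1-high, 17.3% and 17.1% in Chodl-high, 18.5% and 13.4% in Mki67-positive, 22.8% and 21.2% in Myog-positive and 19.2% and 15.2% in Rgs5-positive cells. Of 19 collagen assembly genes (hydroxylases, chaperones, propeptide cleavers and cross-linkers), 12 were higher and 0 lower in Spp1-high cells, 3 and 2 in Chodl-high cells, 3 and 3 in Mki67-positive cells, 1 and 15 in Myog-positive cells and 13 and 3 in Rgs5-positive cells. Adamts2, which removes the amino propeptide of fibrillar procollagens, stood at 163 CPM in Rgs5-positive cells (log2 fold change 3.19 ± 0.19, adjusted p = 1.9e-10), and Loxl2, a cross-linking oxidase, at 166 CPM (4.23 ± 0.35, adjusted p = 1.6e-08). Loxl3 and P3h3 were higher there by 2.88 and 2.95 on the log2 scale. Of 12 matrix receptors, 3 were higher and 0 lower in Chodl-high cells, 2 and 2 in Spp1-high cells, 1 and 3 in Mki67-positive cells, 2 and 8 in Myog-positive cells and 7 and 3 in Rgs5-positive cells. Sdc4, a heparan sulfate co-receptor, stood at 1620 CPM in GFP+ and 860 CPM in GFP- Chodl-high cells, against 566 and 376 CPM in GFP+ and GFP- other myogenic cells (log2 fold change 2.35 ± 0.11, adjusted p = 3.1e-11). Over all myogenic cells Sdc4 had 488 CPM in GFP+ and 278 CPM in GFP- cells, a ratio of 1.76 (1.70 to 1.81). Itga1, a collagen-binding integrin chain, stood at 703 CPM in Rgs5-positive cells and at no more than 8.0 CPM in any myogenic class, and Itga9 and Itga6 were higher there by 4.52 and 4.01.

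Of 10 genes of the plasminogen system and other proteases, 5 were higher and 3 lower in Chodl-high cells, 4 and 0 in Spp1-high cells, 1 and 2 in Mki67-positive cells, 2 and 7 in Myog-positive cells and 5 and 0 in Rgs5-positive cells. Mmp9, a gelatinase, stood at 8.07 CPM in GFP+ and 17.4 CPM in GFP- Spp1-high cells, against 1.44 and 4.11 CPM in GFP+ and GFP- other myogenic cells (log2 fold change 2.59 ± 0.29, adjusted p = 5.7e-06). Plat, a plasminogen activator, was lower in Myog-positive cells, with a log2 fold change of -2.18 ± 0.18 (adjusted p = 2.5e-08). Adamts4 was higher in Rgs5-positive cells by 3.497 ± 0.122 (adjusted p = 8.8e-14). Plau, the urokinase gene, stood at 69.0 CPM in GFP+ and 42.6 CPM in GFP- myogenic cells, a ratio of 1.62 (1.48 to 1.77). Of 11 further collagens 7 could be tested, and 4 were higher and 0 lower in Spp1-high, 0 and 1 in Chodl-high, 3 and 1 in Mki67-positive, 0 and 4 in Myog-positive and 1 and 2 in Rgs5-positive cells. Col14a1 was lower in Chodl-high cells by -2.61 ± 0.72 (adjusted p = 0.0087), Col19a1 was lower in Rgs5-positive cells by -4.20 ± 0.79 (adjusted p = 0.00039), and Col16a1 was higher there by 2.63 ± 0.37 (adjusted p = 1.7e-05). Col13a1 had 0 UMIs in Rgs5-positive cells and between 1.08 and 6.15 CPM in the myogenic classes.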

How the data were processed

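The deposited matrices hold raw UMI counts per gene and barcode, not normalised by the authors, made with Cell Ranger 4 per the file headers. The submitters' processing notes also name Seurat and the mm10 build. Neither annotation release nor strand setting was found in the sources used here. The matrices held 13928952 UMIs over 718416 barcodes (GFP+) and 49709323 UMIs over 1361552 barcodes (GFP-). The members and lists were chosen with earlier results of these data known.

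Cells were classed in a fixed order: macrophage-like, Rgs5-positive, glial-like, endothelial-like or fibroblast-like, Myog-positive, Mki67-positive, Chodl-high, Spp1-high, other myogenic. Classes that are called by a marker list needed at least 2 of its markers. Doublets were not called. Levels are CPM, UMIs of a gene over all UMIs of the same cells, scaled to 1e+06, and ratios of GFP+ over GFP- have exact conditional (Clopper-Pearson) 95% intervals. A gene was past the limit at 1.5-fold or more with at least 20 CPM in at least 1 library. Class sums were tested with edgeR 4.0.16 in R 4.3.3 (TMM, filterByExpr, quasi-likelihood), on 11 sums because GFP+ had no Rgs5-positive cell; DESeq2 1.42.0 was an alternative. Another reference for the class contrasts, the other myogenic cells alone, was added after the data were seen. The code was tested on simulated data, with a spread that was set and not fitted to these data. In Chodl-high cells 50 genes each were changed by 1.5-fold, 2-fold, 4-fold and 0.5-fold. Of these, 15, 46, 50 and 38 were recovered in turn, so a gene that was not called can still differ. All members are named; from each other list up to 4 genes with the greatest absolute log2 fold change among those called in any class contrast, and up to 2 past the limit between libraries, are named. The result of 1 gene that this rule takes is not reported here. Promoter windows were read from RefSeq tables of GRCm38.p6 in Python 3.11.15. Thinning used 1 draw per cell. p-values measure the spread between the sorted fractions, with each gene's error drawn toward that of the other genes.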

Additional observations from a re-analysis of the deposited data

Results flagged for a closer look

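In 13 cases the level of a gene in a class, over all other myogenic cells of the same library pooled, went opposite ways in the GFP+ and GFP- libraries with both counting intervals off 1. The difference between the libraries was not tested, since each is 1 library. In Spp1-high cells Col3a1 had a ratio of 0.877 in GFP+ and 1.21 in GFP-. In Chodl-high cells Lamb1 had 0.613 in GFP+ and 1.59 in GFP-. In Myog-positive cells Timp2 had 0.729 in GFP+ and 1.07 in GFP-.

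The other 10 cases were in Mki67-positive cells, where 1 GFP+ cell held most of the Dcn, Lum and Col1a1 UMIs. Fibrillar collagens above 1 in GFP+ and below 1 in GFP- were Col1a2 (1.28 in GFP+ and 0.885 in GFP-), Col3a1 (1.20 in GFP+ and 0.767 in GFP-), Col5a1 (1.23 in GFP+ and 0.907 in GFP-) and Col5a2 (1.15 in GFP+ and 0.921 in GFP-). Col6a2 had 1.65 in GFP+ and 0.867 in GFP-, and Fbn1 had 1.66 in GFP+ and 0.768 in GFP-. Dcn had 25.6 in GFP+ and 0.210 in GFP-. Postn had 1.998 in GFP+ and 0.799 in GFP-, and Thbs1 had 2.40 in GFP+ and 0.558 in GFP-. Col18a1 went the other way, with 0.862 in GFP+ and 1.11 in GFP-.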

How the results depend on the processing

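No paired analysis was possible because each group has 1 library and the labels give no replicate numbers. Of the counts of members called, 143 values under alternatives stayed within 1.5 times the value reported and 25 did not; the cause was not tested. In myogenic cells the 1 gene higher in GFP+ became 3 with a 5 CPM minimum and 2 with equal weight of the 5 classes, and the 0 lower became 1 with a 5% mitochondrial limit and 1 with equal weight. Over all kept cells the 5 higher became 2 without fibroblast-like cells, and the 4 lower became 1 without macrophage-like and 2 without Rgs5-positive cells. The 2 members lower in Spp1-high cells became 1 with DESeq2, 5 with no filter on low counts and 1 with looser class limits. With other myogenic cells as the only reference, the 22 higher and 2 lower in Spp1-high cells became 8 and 7, the 20 higher in Chodl-high cells became 11, and the 10 higher and 8 lower in Mki67-positive cells became 3 and 19; the 34 lower in Myog-positive and the 22 higher in Rgs5-positive cells were all called again. In Mki67-positive cells 10 higher became 6 and 8 lower became 16 without the 5 cells carrying fibroblast genes, and likewise 6 and 16 without the 1 such cell of that class; without the 5 cells Col3a1 and Thbs1 turned to -0.33 and -1.03. The 1 member higher in Myog-positive cells became 0 with DESeq2, library totals, stricter or looser limits, a 2000 UMI minimum, or cells passing 2 or more limits left out. Of the values of single genes, 1015 kept their call and sign or, for a ratio, stayed inside its counting interval. Another 46 ratios left their interval, while 41 fold changes gained a call, 56 lost one and 2 changed sign. Fold changes called under neither setting were not counted. Depth limits the scarce members: Lum had 26 UMIs in GFP+ and 8 UMIs in GFP- myogenic cells.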
